A study of Mesocricetus auratus with 6 samples.

Results

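Mitochondria make very few of their proteins themselves. The rest are synthesised in the cytosol, threaded through the TOM channel of the outer membrane and passed on by routes that differ by destination. Proteins with a cleavable presequence enter through the TIM23 translocase and are pulled into the matrix by a motor built on mitochondrial Hsp70. Carrier proteins are escorted across the intermembrane space by small Tim chaperones to the TIM22 translocase. In the matrix the chaperonin Hspd1 (Hsp60) and its lid Hspe1 (Hsp10) fold the arrivals, peptidases trim them and proteases remove those that fail to fold. The uterus at implantation is a tissue in which stromal cells begin to proliferate and differentiate around the attached blastocyst, and dividing cells need newly made mitochondrial proteins.

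The genes described here encode this import and folding machinery. They were chosen by name: all gene symbols of the platform annotation that begin with Timm or Tomm, together with a fixed set of chaperone, peptidase, protease, prohibitin and assembly genes. Where several probe sets measured a gene, the one with the highest mean signal over the 6 arrays was selected by that measured value and stands for it. This gave 39 of the 12393 gene symbols on the array, measured by 75 of 22626 tested probe sets. Of the named set, the prohibitin gene Phb shares its probe sets with another symbol and is not analysed here. For 33 of the 39, RefSeq lists a gene of that symbol on the hamster assembly BCM_Maur_2.0. It lists none for Hspe1 and Timm8a1, both called below, nor for Timm8a2, Timm23, Tomm70a and Clpp. The match was by symbol alone, so a gene listed under another name would be missed.

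The samples were whole uterine segments of untreated Syrian golden hamsters (Mesocricetus auratus), taken at day 5 of pregnancy. Each of 3 arrays per group held total RNA of an embryo implantation site or of an interimplantation site, the segment without an embryo between such sites. The RNA came from 3 animals, so arrays of 1 group are biological replicates, and an Affymetrix mouse array was used. Arrays of different groups can thus share an animal. Which of them do is not stated, and the main test did not pair them. Each value is a log2 RMA signal, a background-corrected and normalised summary of a probe set. Mouse probes can bind hamster RNA weakly, so signals of different genes were not set against each other, and a small difference does not show that a gene was unaltered.

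Several facts of the arrays touch every value below. The Escherichia coli and phage P1 hybridisation controls averaged 6.64 ± 0.17 on the implantation arrays and 7.03 ± 0.27 on the interimplantation arrays (SD, n = 3), with overlap between the groups. When the arrays were put on the scale of these controls, the median difference of all genes went from −0.02 to 0.38, so a direction is relative to the bulk of the genes. Among cell type markers, the summed linear signal of 6 smooth muscle genes was 386 to 522 at the implantation site and 740 to 1148 between sites, with 2 called lower. The called genes were Actg2 (−1.74) and Tagln (−1.26). Cnn1 at −0.39, Acta2 at −0.24, Des at 0.13 and Myh11 at 0.06 were not called. The sum of 7 epithelial genes was 204 to 217 against 242 to 281, with 1 called lower and with Cdh1 dimmer than the median Bacillus control. Cldn7 (−0.78) was the called one. Krt18 at −0.47, Cldn4 at −0.21, Krt8 at −0.16, Cdh1 at −0.11, Epcam at −0.01 and Krt19 at 0.0007 were not called. The sum of 9 stromal and decidual genes overlapped, at 2350 to 2766 and 2408 to 2786, with 1 called higher and with Bmp2 dimmer than that control. Differences of both signs stand behind that sum: Wnt4 was at 0.63, Hand2 at 0.58 and Vim at −0.29, and of these 3 limma called Wnt4 alone. The sum of 5 leukocyte genes overlapped too, at 221 to 250 and 225 to 242, as did that of 5 endothelial genes (176 to 194 and 191 to 205). That of 5 trophoblast and embryo genes was 94 to 96 against 100 to 108, and that of 2 erythroid genes 50 to 56 against 57 to 75. Every gene of both lists was dimmer than the brightest Bacillus control (5.79). Limma called 0 of the leukocyte, endothelial, erythroid and embryo markers, of which 1, 0, 1 and 1 had an unadjusted p under 0.05. These were the leukocyte gene Cd68 (0.38), the erythroid gene Alas2 (−0.35) and, in the embryo list, Krt7 (−0.22). Cdx2, with all implantation values above, was the 1 positive gene of the 5 embryo markers, at 0.11. The part of tissue composition in the results below was not tested, and in whole tissue a change in the share of a cell type and a change in RNA per cell cannot be told apart.

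At the implantation site 5 of the 39 import and folding genes rose. They were the matrix chaperonin pair Hspd1 and Hspe1, the outer membrane channel Tomm40 and the small intermembrane space chaperones Timm8a1 and Timm10. Their signals were 1.32-fold to 1.52-fold higher than between the sites. None fell, and none had an unadjusted p under 0.05 in the lower direction, while 12 had one in the higher direction. Among all genes such a p was reached by 6.14% in the higher and 8.67% in the lower direction. These calls come from limma with Benjamini-Hochberg adjustment over all 22626 probe sets, at an adjusted p under 0.05. The 5 genes are 12.8% of the 39, where 1.36% of all genes were called higher and 1.18% lower.

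The remaining 34 genes were not called, and their differences ran from −0.18 to 0.42 on the log2 scale. Over all 39 genes the median difference, implantation minus interimplantation, was 0.086 against −0.02 for all genes. The difference was positive in 30 of them (76.9%, against 43.8% of all genes). In 11 genes (28.2%) all 3 implantation values lay above all 3 interimplantation values, as in 8.02% of all genes. In 0 genes did they all lie below, as in 12.1% of all genes. With scaling to the hybridisation controls, which adds the same amount to every difference, all 9 negative differences lay above 0. Since the genes were put together with earlier results of these arrays known, the list as a whole was given no test.

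**Figure D1:**
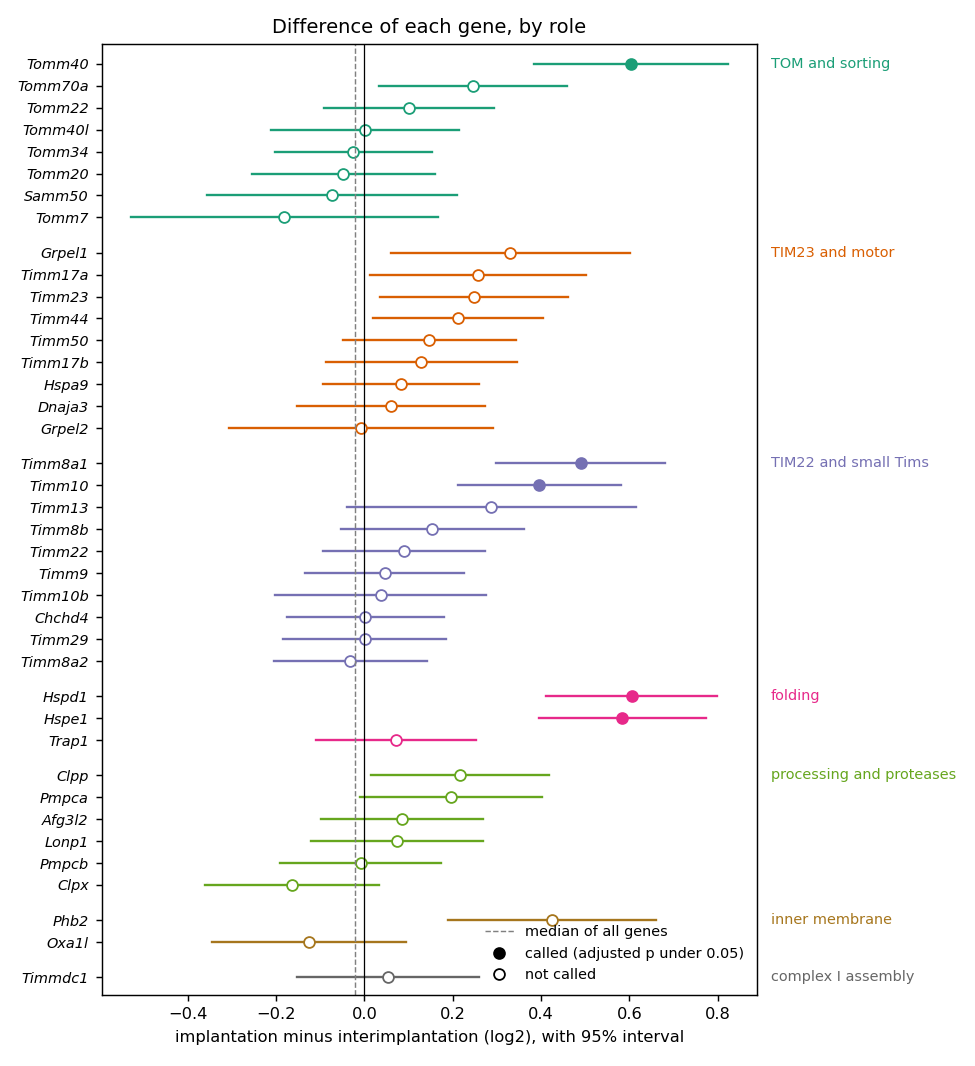
The fitted difference of each of the 39 genes on the log2 scale (implantation minus interimplantation, 3 arrays each) with its 95% interval, grouped by role; filled points are called at an adjusted p under 0.05. The 5 filled points lie between 0.40 and 0.61, and the dashed line marks the median of all genes at −0.02.

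The matrix chaperonin gave the clearest difference. Hspd1 encodes the barrel in which imported proteins fold. Its signal was 7.49, 7.30 and 7.38 on implantation arrays 1 to 3 and 6.71, 6.89 and 6.76 on interimplantation arrays 1 to 3. All implantation arrays were higher, and the gap between the groups exceeded the spread within either. Hspd1 rose by 0.61 (SE 0.09, limma adjusted p = 0.00385), a 1.52-fold increase.

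Hspe1 encodes the lid that closes the Hspd1 barrel, and in mammals both genes are neighbours that share a promoter region. Its signal was 6.94, 6.87 and 6.92 at the implantation site and 6.39, 6.40 and 6.20 between sites. The implantation arrays were nearly equal, with an SD of 0.04 (n = 3), and all lay above the interimplantation arrays. Hspe1 rose by 0.58 (SE 0.09, limma adjusted p = 0.00413). A dimmer probe set of Hspe1, which did not stand for the gene, read 5.72, 5.46 and 5.63 against 5.26, 5.16 and 5.19 and was also called (0.40, adjusted p = 0.0407). The brighter probe set is of the kind shared by several transcripts. When all such probe sets were left out, the dimmer one alone carried Hspe1 and just missed the threshold (adjusted p = 0.0502).

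Both chaperonin genes kept their calls without each of the 6 arrays in turn, with adjusted p from 0.00354 to 0.0329. In a model that also held the mean signal of the hybridisation controls on each array, called the control model from here on, they did not pass (0.55 and 0.58, adjusted p = 0.0809 and 0.0654).

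Trap1, the mitochondrial member of the Hsp90 family, did not follow the chaperonin. It read 6.43, 6.30 and 6.24 at the implantation site against 6.26, 6.26 and 6.25 between sites. The groups overlapped, and the difference was 0.07 (95% interval −0.11 to 0.25, adjusted p = 0.775).

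**Figure D2:**
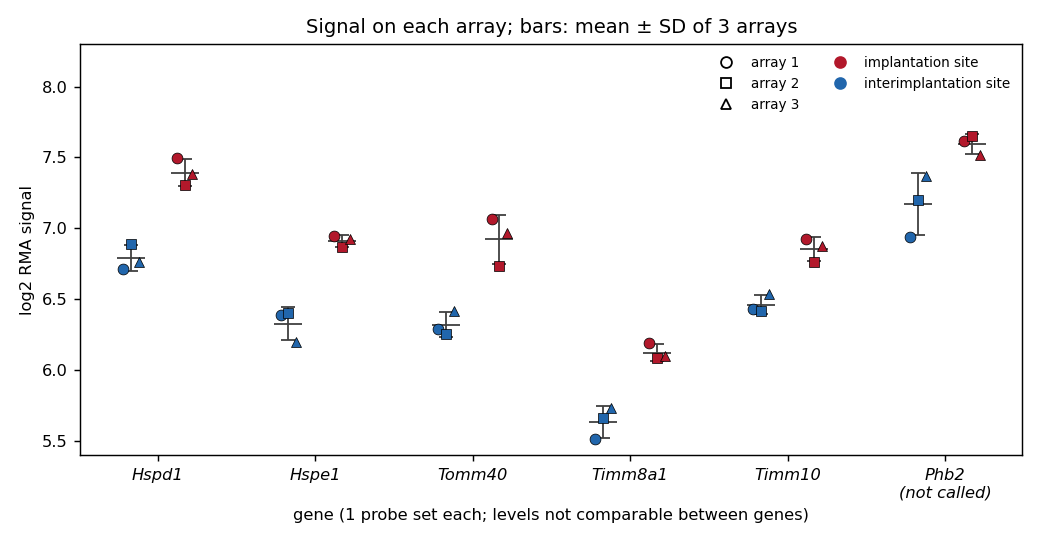
The log2 RMA signal on each of the 6 arrays for the 5 called genes and Phb2, the uncalled gene with the smallest p; marker shapes give the array number, which is not stated to mark the same animal in both groups, and bars show the mean ± SD of 3 arrays. In all 6 genes every implantation array lies above every interimplantation array, with the smallest gap in Phb2 (7.52 against 7.37).

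Of 8 genes of the outer membrane channel, its receptors and the sorting machinery, counted with the cytosolic Tomm34, 1 rose. Tomm40 forms the pore through which nearly all imported proteins pass. Its signal was 7.07, 6.73 and 6.97 at the implantation site and 6.29, 6.25 and 6.42 between sites. The groups did not overlap, although implantation array 2 lay well below the other two. Tomm40 rose by 0.60 (SE 0.10, limma adjusted p = 0.00787), or 1.52-fold. It had a single probe set. The call was lost without implantation array 1 (0.53, adjusted p = 0.0570) and without implantation array 3 (0.58, adjusted p = 0.0517). In the control model Tomm40 was the only one of the 39 genes still called (0.74, adjusted p = 0.0390).

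The receptors around this pore did not pass. Tomm70a, the receptor for carrier precursors handed over by cytosolic chaperones, read 6.84, 6.71 and 6.82 against 6.36, 6.68 and 6.58. The groups were apart by a narrow margin between implantation array 2 and interimplantation array 2, and the difference was 0.25 (adjusted p = 0.272). The 4 probe sets of Tomm70a disagreed, at 0.25, −0.12, −0.06 and 0.55. The last was called (adjusted p = 0.00389) but had a mean signal of 2.43, below the median Bacillus control at 2.68, to which no hamster RNA corresponds.

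Tomm20, the receptor for presequences, was at −0.05 (95% interval −0.26 to 0.16), and Tomm22, the central receptor, was at 0.10 (−0.09 to 0.29). Tomm7, a small subunit that affects how stably the complex holds together, read 8.25, 7.95 and 8.15 against 7.88, 8.64 and 8.38. The interimplantation arrays lay on both sides of the implantation arrays, and the difference of −0.18 did not pass (adjusted p = 0.687). Samm50, the core of the machinery that inserts barrel proteins into the outer membrane, was at −0.07, and both showed the low interimplantation array 1 described further on. Tomm34, a cytosolic co-chaperone of precursors, was at −0.02, and Tomm40l, a close relative of Tomm40, at 0.001 (95% interval −0.21 to 0.21).

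Of 10 genes of the carrier route and the intermembrane space, 2 rose. Timm8a1 encodes a small Tim that works with Timm13 as an escort of hydrophobic precursors. Its signal was 6.19, 6.08 and 6.10 at the implantation site and 5.51, 5.66 and 5.73 between sites. The groups were clearly apart. Timm8a1 rose by 0.49 (SE 0.09, limma adjusted p = 0.0117), or 1.40-fold. Its dimmer probe set was at 0.21 with overlapping groups (adjusted p = 0.472), and the mean of both gave 0.35 (adjusted p = 0.0998). The call was also lost when implantation array 1 or 3 was left out (adjusted p = 0.0836 and 0.0550) and in the control model (0.44, adjusted p = 0.145).

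Timm10 pairs with Timm9 to escort carrier proteins. Its single probe set read 6.93, 6.76 and 6.88 at the implantation site and 6.43, 6.42 and 6.54 between sites. All implantation values were higher. Timm10 rose by 0.40 (SE 0.08, limma adjusted p = 0.0322), or 1.32-fold, the weakest of the 5 calls. It did not pass when implantation array 1, 2 or 3 was left out (adjusted p = 0.164, 0.0538 and 0.134), nor interimplantation array 2 or 3 (adjusted p = 0.0973 and 0.0556). It did not pass in the control model either (0.46, adjusted p = 0.112).

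The partners of these 2 escorts gave smaller values. Timm13 read 7.48, 7.44 and 7.45 at the implantation site and 6.73, 7.43 and 7.35 between sites. The groups were apart by 0.005 between implantation array 2 (7.435) and interimplantation array 2 (7.430), and the difference of 0.29 did not pass (adjusted p = 0.438). Timm9 was at 0.05 (95% interval −0.13 to 0.23) on a signal of 2.84 ± 0.02 and 2.80 ± 0.09 (SD, n = 3), close to the median Bacillus control. Timm8b was at 0.15 (adjusted p = 0.525). Timm22, the channel of the carrier translocase, was at 0.09 (−0.09 to 0.27), and its associated subunits Timm10b and Timm29 were at 0.04 and 0.0006. One of the other probe sets of Timm10b went the other way, at −0.28 with the implantation arrays all below (adjusted p = 0.156). Chchd4, which oxidises cysteines of the small Tims and so traps them in the intermembrane space, read 6.45, 6.41 and 6.48 against 6.40, 6.40 and 6.52, a difference of 0.002 (95% interval −0.17 to 0.18). Timm8a2, a relative of Timm8a1, was at −0.03 and was the only gene of the 39 with a mean signal below the median Bacillus control.

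None of the 9 genes of the presequence route was called by limma, although 4 had an unadjusted p under 0.05, all higher, and 8 differences were positive. The median was 0.15. Grpel1, the nucleotide exchange factor of the import motor, read 7.31, 7.30 and 7.35 at the implantation site and 6.67, 7.24 and 7.06 between sites. The implantation arrays were nearly equal and all higher, and the interimplantation arrays were widely spread. The difference was 0.33 (SE 0.12, adjusted p = 0.241) and became 0.17 without interimplantation array 1.

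Timm23, the channel that gives the route its name, read 6.61, 6.34 and 6.52 against 6.36, 6.13 and 6.24. Implantation array 2 fell below interimplantation array 1, and the difference of 0.25 did not pass (adjusted p = 0.270). Timm17a and Timm17b, the channel's partner subunits, were at 0.26 and 0.13 (adjusted p = 0.326 and 0.631). Timm44, which tethers the motor to the channel, read 7.04, 6.91 and 6.82 against 6.66, 6.68 and 6.80. The groups were apart by a narrow gap between the third arrays, and the difference was 0.21 (adjusted p = 0.299). Timm50, the receptor of the route, was at 0.15 (adjusted p = 0.519).

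Hspa9, the mitochondrial Hsp70 at the heart of the motor, was at 0.08 (95% interval −0.09 to 0.26). Its 4 probe sets ran from −0.06 to 0.18, all with overlapping groups. Dnaja3, a mitochondrial co-chaperone of Hsp70, was at 0.06 and Grpel2, the relative of Grpel1, at −0.007.

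No gene of processing and proteolysis was called among 6, and 1 had an unadjusted p under 0.05 in the higher direction and 0 in the lower one. Clpp, the peptidase of the matrix ClpXP protease, read 7.72, 7.68 and 7.67 at the implantation site and 7.32, 7.49 and 7.61 between sites. All implantation arrays were higher by a small margin, and the difference was 0.22 (adjusted p = 0.313). Its partner Clpx, which unfolds the substrates, pointed the other way at −0.16 (95% interval −0.36 to 0.03, adjusted p = 0.465). Pmpca and Pmpcb together cut off presequences. Pmpca read 7.21, 7.35 and 7.25 against 6.97, 7.24 and 7.01, with interimplantation array 2 just above implantation array 1, and was at 0.20 (adjusted p = 0.385). Pmpcb was at −0.008 (adjusted p = 0.980). The matrix protease Lonp1 was at 0.07 (−0.12 to 0.27), and Afg3l2, of the inner membrane protease, at 0.09 (−0.10 to 0.27).

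In the inner membrane, Phb2 came closest to a call. It encodes a prohibitin, whose rings act as a scaffold for membrane proteins and proteases. Its signal was 7.62, 7.65 and 7.52 at the implantation site and 6.94, 7.20 and 7.37 between sites. The groups did not overlap, and the difference of 0.42 (SE 0.11) did not pass (adjusted p = 0.0698). It passed without interimplantation array 3 (0.52, adjusted p = 0.0417), when probe sets dimmer than the median were left out (adjusted p = 0.0479) and with scaling to the controls (adjusted p = 0.00918). In the control model it was at 0.28 (adjusted p = 0.452). The other probe sets of Phb2 were at 0.07 and −0.07. Oxa1l inserts proteins into the inner membrane from the matrix side. It read 5.72, 5.53 and 5.69 against 5.60, 5.79 and 5.93, a difference of −0.13 (adjusted p = 0.651), and its other probe set was at 0.12. The groups overlapped in both. Timmdc1, named like a translocase subunit but an assembly factor of respiratory complex I, read 3.64, 3.66 and 3.63 against 3.78, 3.51 and 3.49. The interimplantation arrays lay on both sides, and the difference was 0.05 (95% interval −0.15 to 0.26).

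The probe sets that did not stand for a gene gave a second readout of 22 of the 39 genes. Of 36 such probe sets, 18 were positive, 2 were called higher (Hspe1 and the dim one of Tomm70a) and 0 lower. Among all probe sets 1.26% were called higher and 1.05% lower. Hspd1, Tomm40 and Timm10 had no such probe set. A measured limit is brightness: 22 of the 39 genes had a signal above the brightest Bacillus control (5.79), as had 26.6% of all genes, and all 5 calls were among these. The other 17 genes ran from −0.16 to 0.26.

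**Figure D3:**
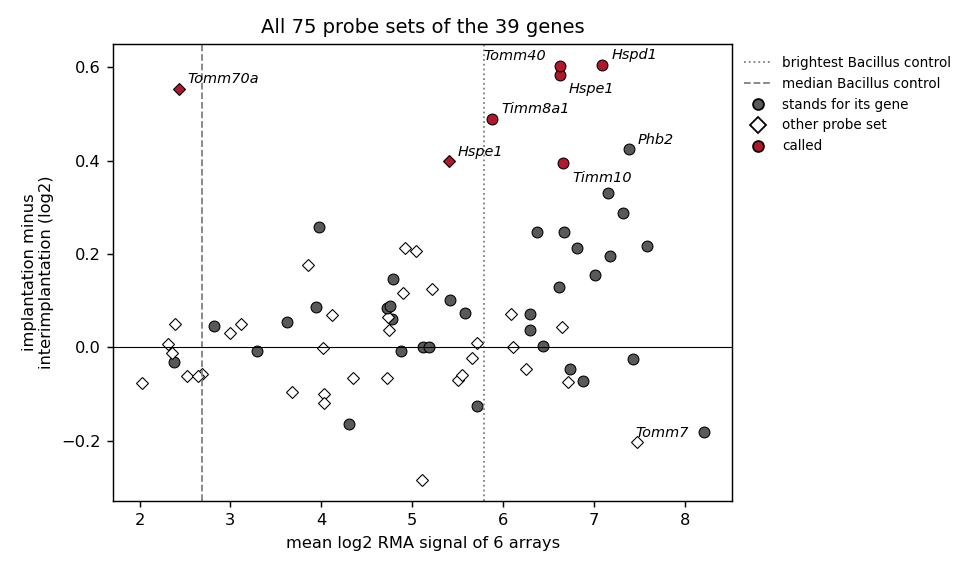
The difference of each of the 75 probe sets of the 39 genes (log2, implantation minus interimplantation) against its mean log2 RMA signal over 6 arrays; circles stand for their gene, diamonds are other probe sets and red marks a call. Of the 7 red points, the Tomm70a diamond at 2.43 lies left of the median Bacillus control, and the other probe sets scatter on both sides of 0.

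The arrays of a group did not stand equally across these genes. Implantation array 1 held the lowest value of its group in 5 of the 39 genes (12.8%, against 36.3% of all genes), and implantation array 2 in 19 (48.7%, against 35.9%). Interimplantation array 1 held the lowest value of its group in 23 of the 39 genes (59.0%), against 41.2% of all genes. The low values of interimplantation array 1 were plain in Timm13, Grpel1, Tomm7 and Samm50, chosen after their values were seen, where this array read 6.73, 6.67, 7.88 and 6.57 and the lower of the other two interimplantation arrays 7.35, 7.06, 8.38 and 7.00. Without this array Timm13 was at 0.07, Tomm7 at −0.39 and Samm50 at −0.25, none of them called (adjusted p = 0.791, 0.0896 and 0.204). The same 5 genes were called without it. The hybridisation controls were brightest on this array, at 7.27 against 6.75 and 7.08 on interimplantation arrays 2 and 3, and their part in its low values was not tested.

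The number of calls moved with single implantation arrays, and so did the share of all genes called higher. It was 2 without implantation array 1 or 3, in both cases Hspd1 and Hspe1, when 0.565% and 0.718% of all genes were called higher, and 4 without implantation array 2, when 0.823% were. Without interimplantation array 1, 2 or 3 it was 5, 4 and 5, beside 1.55%, 1.17% and 1.025% of all genes. Scaling to the hybridisation controls gave 8 calls, with Grpel1, Phb2 and Timm13 beside the 5, and raised the share of all genes to 3.63%. In the control model 1 call was left, with 0.331% of all genes called higher. Without shared probe sets, which removes Tomm40 and leaves Hspe1 its dimmer probe set, 3 calls were left of 33 genes, beside 1.04% of all genes. Probe sets were taken as shared by the ending of their name alone (_s_at, _x_at or _a_at). That of Tomm40 ends in _a_at and that of Hspe1 in _s_at. The median of the 39 genes was 0.11 above that of all genes, a gap that a scaling of whole arrays cannot alter, and 0.08 above it in the control model.

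**Figure D4:**
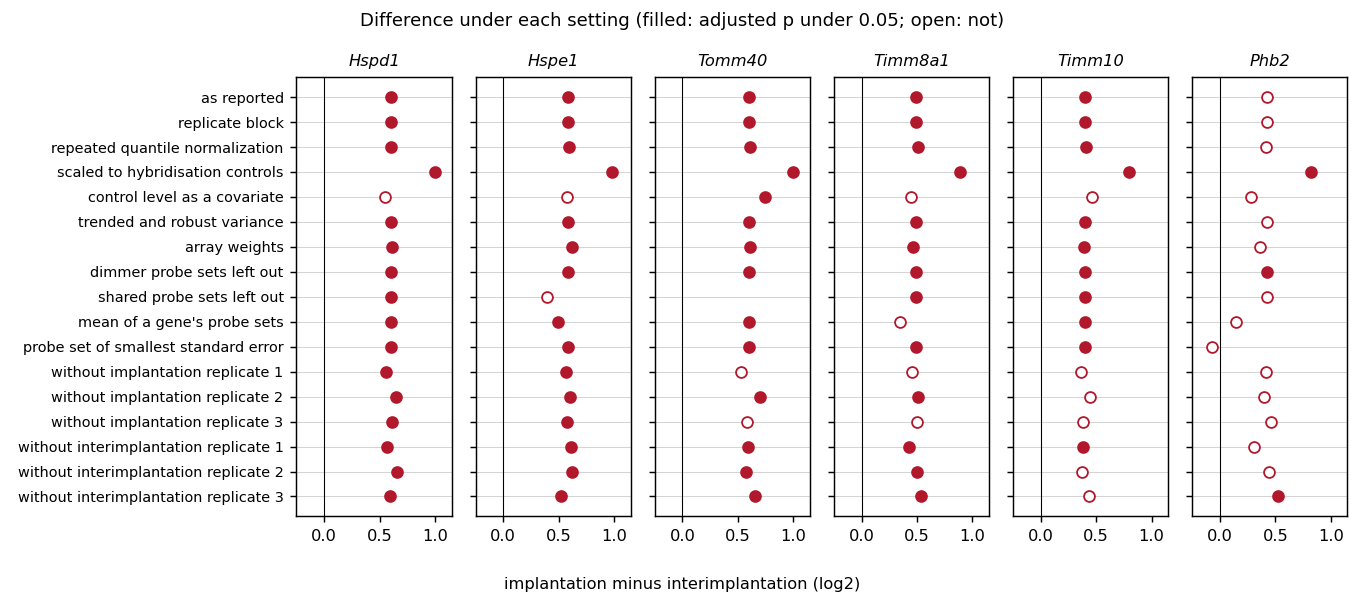
The difference (log2, implantation minus interimplantation) of the 5 called genes and Phb2 under each setting of the calculation; filled points are called at an adjusted p under 0.05, and a missing point means that the gene had no probe set left. All points of the 5 called genes lie above 0, Hspd1 is open under 1 of 16 alternatives and Timm10 under 6.

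Lists of other mitochondrial genes put these values beside their surroundings. Of 30 measured genes of import, membrane organisation and quality control outside the set above, limma called 0, while 7 had an unadjusted p under 0.05 in the higher direction and 2 in the lower one. The median was 0.06. In 5 of the 30 (16.7%) all implantation values lay above all interimplantation values, and in 1 all lay below. Among all genes these shares were 8.02% and 12.1%. An unadjusted p under 0.05 was reached by 6.14% of all genes in the higher and 8.67% in the lower direction. The smallest p belonged to Atad3a, an inner membrane ATPase (0.34, adjusted p = 0.0605), and Bcs1l, an assembly factor of respiratory complex III (0.32, adjusted p = 0.127). Atad3a was called without interimplantation array 1 (0.38, adjusted p = 0.0385). Clpb, which dissolves protein aggregates, was at 0.30, and Htra2, a protease of the intermembrane space, at 0.31 (adjusted p = 0.139 and 0.148). Mtx2, an outer membrane partner of Samm50, was at −0.27 (adjusted p = 0.267).

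The 20 measured enzymes of the citric acid cycle and pyruvate dehydrogenase are cargo of the presequence route or inner membrane proteins. Of these, 1 rose (5%, against 1.36% of all genes) and 0 fell. An unadjusted p under 0.05 was reached by 5 in the higher and 1 in the lower direction, and the median was 0.08. In 5 (25%, against 8.02% of all genes) all implantation values lay above all interimplantation values, and in 1 all lay below. Fh1, fumarase, rose by 0.39 (SE 0.09, limma adjusted p = 0.0444). It lost its call without any 1 of the 6 arrays (adjusted p from 0.0576 to 0.165). Its mean signal was 4.32 at the implantation site and 3.93 between sites, below the brightest Bacillus control (5.79). Mdh2, malate dehydrogenase, was at 0.33 and Idh3b, a subunit of isocitrate dehydrogenase, at −0.26 (adjusted p = 0.157 and 0.162).

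Among 22 measured regulators of mitochondrial gene expression, DNA upkeep and stress, limma called 0. An unadjusted p under 0.05 was reached by 2 of them, both higher, as by 6.14% of all genes in that direction. In 2 (9.09%, against 8.02% of all genes) all implantation values lay above, and in 1 all lay below. Myc, a transcription factor that drives growth and mitochondrial genes among many others, was at 0.24 and Gabpb1, a subunit of a factor of respiratory genes, at 0.27 (adjusted p = 0.182 and 0.206). The factors linked to the mitochondrial unfolded protein response, in which Hspd1 and Hspe1 are classical targets, gave small values. Atf5 was at −0.12 (95% interval −0.31 to 0.08), Atf4 at 0.09 (−0.10 to 0.28) and Ddit3 at −0.009 (−0.24 to 0.23). These are RNA signals only, and the part of this response in the chaperonin differences was not tested. The coactivator Ppargc1a was at −0.19 and the mitochondrial transcription factor Tfam at 0.12 (adjusted p = 0.521 and 0.580).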

How the data were processed

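Per the submitters' processing notes, the authors made the deposited log2 values with Partek 6.6 and RMA. These sources do not state the log base, and base 2 rests on the range of the values. Of 22690 probe sets in the table, 64 are controls and stayed out of the tests, and no filter on level was set. The platform annotation, from which genes were named, gives 1 symbol for 20380 probe sets, several for 691 and none for 1555.

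The test was limma 3.58.1 under R 4.3.3, two-sided, using lmFit and eBayes with group alone in the model and Benjamini-Hochberg adjustment over the 22626 probe sets. The calculation was tested on simulated data. Folds are 2 to the power of the difference. Array values are given for the called genes and the 2 of smallest p in each role, and for others chosen after their values were seen. Other lists contributed their called genes and the 2 of smallest p, plus a few chosen after their values were seen. The genes and lists were chosen with earlier results of these data known.

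Alternatives were the replicate number as a block, each array left out, repeated quantile normalization, both uses of the 18 hybridisation controls, another variance model, array weights, the dimmer or shared probe sets left out, and other rules for a gene's probe set. No genome or sequence was used here.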

Additional observations from a re-analysis of the deposited data

How the results depend on the processing

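The 5 genes called higher of the 39 kept a positive difference under every alternative run in which they had a probe set. Their number was 8 with scaling to the hybridisation controls (3.63% of all genes), 1 with the control level as a covariate (0.331%), 3 without shared probe sets (1.04%) and 2 to 5 without single arrays (0.565% to 1.55%). The median of the 39 genes was 0.48 with scaling to the controls, and that of all genes was then 0.38. With that scaling 23 of the 39 genes had groups apart, and without shared probe sets 7 of 33 had. The share of all genes with groups apart was not counted under these settings, so these counts have no background. Other import and quality genes called higher numbered 5 of 30 with the scaling, when 3.63% of all genes were called higher. They numbered 1 of 30 with array weights (1.75% of all genes) and 1 of 26 without dimmer probe sets (2.48%). Without single arrays they numbered 0 to 1 (0.565% to 1.55%). There 0 to 1 were called lower, beside 55 to 241 of all 12393 genes. The enzymes called higher numbered 2 with the scaling and 0 with the covariate, with a trended and robust variance and without any 1 array. They also numbered 0 without dimmer or shared probe sets, where Fh1 had no probe set left to test. Equal replicate numbers are not stated to mark 1 animal, and deviations of same-numbered arrays correlated at −0.09, 0.07 and −0.03 over all probe sets. With the replicate block 5 genes were called, the same 5. With 3 arrays a group, differences of dim probe sets are poorly bounded.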
